A study of Saccharomyces cerevisiae with 24 samples.

Results

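The step from 45 to 50 fL was examined across all genes in a cell size series of diploid budding yeast. It compares the 3 libraries labelled 49.5 to 51.4 fL with the 3 labelled 43.0 to 44.4 fL, so 6 of the 24 libraries of the series, and every library is shown because 50 fL replicate 2 lay close to the 45 fL libraries. All groups are wild-type BY4743, a diploid laboratory strain without an added treatment, cultured at 30 °C in YPD, a rich glucose medium. Small G1 cells were collected by centrifugal elutriation, grown on until they had the wanted size, stopped with cycloheximide and sodium azide, frozen, and later combined with other frozen cells of about that size. Each library is total RNA of 1 such pool after removal of rRNA, and the design text calls the 3 pools of a size biological replicates. Size, time in culture and the cultures that were pooled cannot be told apart. The labels of the 45 fL replicates 1, 2 and 3 are 44.4, 43.0 and 43.3 fL, and those of the 50 fL replicates 1, 2 and 3 are 51.4, 49.5 and 50.2 fL. All values for a gene are listed below in that order.

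In budding yeast a G1 cell grows until it passes Start, the point after which it is committed to divide. The cyclin Cln3 and its kinase Cdc28 act against the repressor Whi5, and the transcription factors SBF and MBF then turn on the G1/S regulon, which holds the cyclins CLN1 and CLN2, S-phase cyclins and genes for DNA synthesis. Growth itself rests on making ribosomes: a large set of assembly factors processes rRNA in the nucleolus, and in yeast many of their promoters share the PAC and RRPE elements. Genes of the general stress response are activated by Msn2 and Msn4 through the STRE element and are known to move opposite to ribosome biogenesis genes when growth slows.

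Total counts of the 6 libraries ran from 16103753 to 20534042 over 7032 features, and 6402 genes had enough counts to be tested. Levels are given as CPM, in which every library is put on the same total after TMM scaling. They are shares of a library and not amounts per cell, so fewer cells with a transcript and less of it per cell cannot be told apart. URA3 and LEU2, both deleted in this strain, had 0 counts in all 6 libraries. Sums of markers, unlike the levels of single genes, are CPM of the raw library total without TMM scaling. The 15 markers of haploid cells summed to 188 to 226 CPM and the 19 markers of meiotic cells to 224 to 270 CPM, with none at 0. The 7 markers of cells past G1 summed to 343, 747 and 377 CPM at 45 fL and to 1037, 325 and 514 CPM at 50 fL. The sum was highest in 50 fL replicate 1 and lowest in 50 fL replicate 2. The histone genes HTA1 and HTB1 were the largest parts of each sum. 50 fL replicate 2 was lowest in both, at 92.3 and 151 CPM after TMM scaling. In CLB1, CLB2, CDC5, CDC20 and CHS2 it was not the lowest library. No pair of replicates was a copy, as the chi-square of their counts over its degrees of freedom ran from 31 to 262.

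The 50 fL libraries did not form a group. Over all genes tested, 50 fL replicates 1 and 3 were nearest to each other, with a root-mean-square difference of 0.348 in log2 CPM, and next to the 60 fL libraries, at 0.424 to 0.465 for replicate 1 and 0.487 to 0.512 for replicate 3. The library nearest to 50 fL replicate 2 among the other 23 was 45 fL replicate 1, at 0.288, and the next was 45 fL replicate 2, at 0.425. It stood 0.689 from 50 fL replicate 1 and 0.672 from 50 fL replicate 3. The 45 fL libraries were spread as well: replicate 2 was nearest to 55 fL replicate 3, at 0.350, and replicate 3 lay 0.496 from replicate 2 and 0.582 from replicate 1. In a principal component analysis of the 6 libraries, the first component held 74.9% of the variance. It placed the 45 fL libraries at -9.1, -12.6 and -45.0 and the 50 fL libraries at 38.5, -8.4 and 36.6, so 50 fL replicate 2 lay next to 45 fL replicate 1, and 45 fL replicate 3 at the far end.

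**Figure D1:**
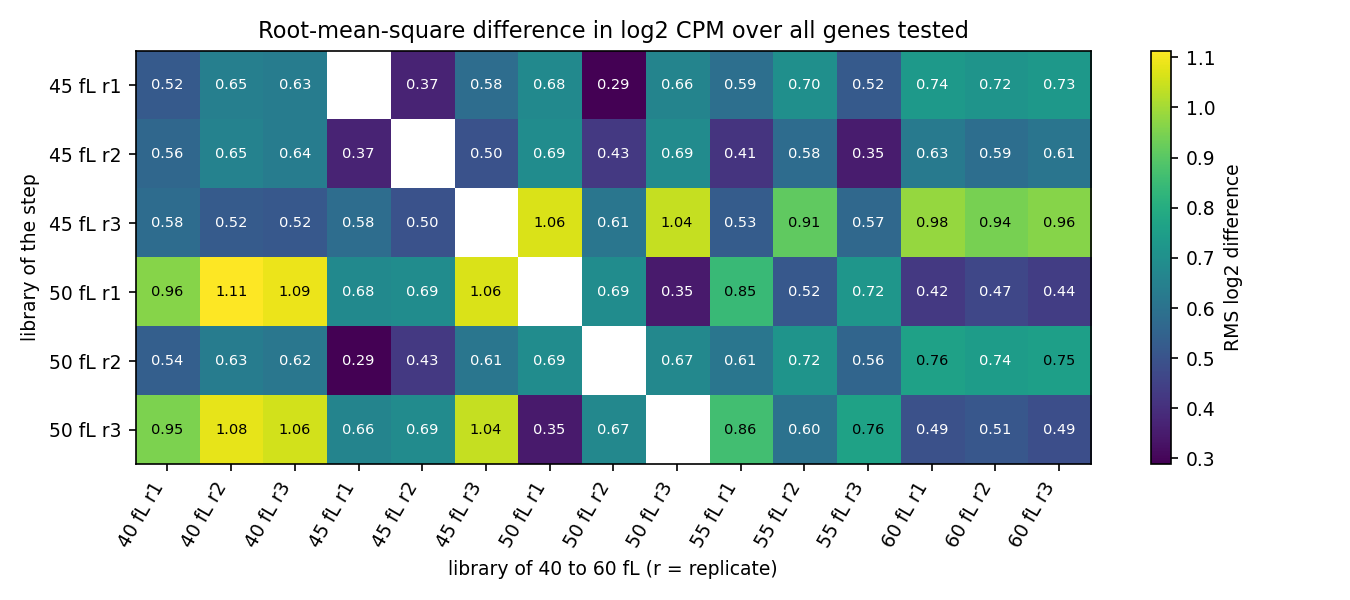
Root-mean-square difference in log2 CPM over all genes tested between each library of the step (rows) and the libraries of 40 to 60 fL (columns). Darker cells are more alike; 50 fL replicate 2 is darkest against 45 fL replicate 1 (0.29), and 50 fL replicates 1 and 3 against each other (0.35).

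From 45 to 50 fL most ribosome assembly genes fell, as did 7 of 14 arginine genes and 13 of 28 genes for amino acid and nitrogen uptake. Among the rises were 8 of 26 G1/S genes, 12 of 27 chaperone genes and 9 of 15 TCA cycle genes. edgeR called 2055 of 6402 genes at an adjusted p under 0.05, or 32.1%, of which 978 rose (15.3%) and 1077 fell (16.8%). Of these, 101 rises and 194 falls were at least 2-fold, and the median log2 change of all genes was 0.02. In 1743 genes, or 27.2%, the 3 libraries of one size did not overlap with the 3 of the other in CPM. Without 50 fL replicate 2, edgeR called 3434 of 6437 genes, or 53.3%, with 1676 rises (26.0%) and 1758 falls (27.3%). That library was left out because of its values, so results without it are a description. Counts of list members in that fit stand beside these shares of 26.0% and 27.3%. The balance of rises and falls depended on scaling: rises were 47.6% of the calls with TMM factors and 34.6% with library totals. In limma on deposited TPM they were 22.0%, with a median over all genes of -0.14. That setting also differs in test and filter, so its share cannot be laid to scaling alone.

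The number of calls depended on single libraries and on the fit. Without 45 fL replicate 3 edgeR called 2 genes, without 50 fL replicate 1 it called 2, and without 50 fL replicate 3 it called 1; at an unadjusted p under 0.05 the counts were 1490, 1857 and 1950. Fitted on the 6 libraries of the step alone, edgeR called 0 genes, with 1066 at an unadjusted p under 0.05. The changes themselves stayed closer. For the 2055 called genes the median ratio of the log2 change to that with all libraries was 0.754, 0.851 and 0.848 in the 3 fits without a library. In the 6 libraries alone it was 1.02, over 2047 genes tested there. That value was bound to lie near 1, since with 1 coefficient per size the change always rests on these 6 libraries. The direction was the same for each gene tested in these 4 fits. All 4 share most or all libraries of the step with the fit that chose the genes, so this is a description. Every rise and fall named below is therefore called in the fit of all 24 libraries and was not called in the fits just listed, apart from 3 genes in the fits without 1 library. YMR244W, an unnamed reading frame (chromosome XIII, 757250 to 758317, plus strand), was called in each of the 6 fits that left out 1 library, and stood at 15.1, 7.00 and 24.3 CPM at 45 fL and 1.95, 3.14 and 1.04 CPM at 50 fL. It was lower in every 50 fL library than in every 45 fL library, and the change was -2.91 ± 0.39 (log2, SE, edgeR adjusted p = 0.00324). LYS9, for a late step of lysine synthesis, stood at 233, 179 and 169 CPM at 45 fL and 124, 111 and 122 CPM at 50 fL, a fall of -0.70 ± 0.12 (log2, SE, edgeR adjusted p = 0.00775) that stayed called without 45 fL replicate 3. RIB4, for riboflavin synthesis, stood at 226, 194 and 190.1 CPM at 45 fL and 348, 382 and 359.6 CPM at 50 fL, a rise of 0.84 ± 0.13 (log2, SE, edgeR adjusted p = 0.00775) that stayed called without 50 fL replicate 1. In both genes the 50 fL libraries lay close together, replicate 2 included, and did not overlap with the 45 fL libraries. YMR244W and RIB4 were picked out after their values were seen.

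Most regulators of Start did not pass, while the G1/S regulon had a high list mean in 2 of the 3 libraries of 50 fL. CLN3, the most upstream G1 cyclin, stood at 181, 157 and 188 CPM at 45 fL and 127, 191 and 141 CPM at 50 fL and did not pass (-0.20 ± 0.17 (log2, SE, edgeR adjusted p = 0.354)). WHI5, the repressor of SBF, stood at 13.9, 16.6 and 11.0 CPM at 45 fL and 22.1, 13.9 and 17.0 CPM at 50 fL and did not pass either (0.35 ± 0.21 (log2, SE, edgeR adjusted p = 0.177)). Of 16 Start regulators 1 rose and 2 fell, against 15.3% and 16.8% of all genes, with a median of 0.10. MSA2, for a protein that associates with SBF and MBF, stood at 30.5, 37.1 and 14.5 CPM at 45 fL and 62.0, 30.8 and 69.8 CPM at 50 fL and rose by 0.99 ± 0.29 (log2, SE, edgeR adjusted p = 0.0267). The falls were in CKS1, the small subunit bound to Cdc28, by -0.36 ± 0.10, and in WHI3, for an RNA-binding protein that holds back Start, by -0.29 ± 0.11. CDC28, the kinase itself, changed by 0.23 ± 0.09 (log2, SE, edgeR adjusted p = 0.0501) and SIC1, its inhibitor, by 0.13 ± 0.15 (log2, SE, edgeR adjusted p = 0.508). In SIC1 all libraries but 50 fL replicate 1 lay between 41.7 and 46.8 CPM.

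Of 26 genes of the G1/S regulon 8 rose and none fell, and the median was 0.77 beside 0.02 for all genes. In the fit without 50 fL replicate 2, 22 rose and the median was 1.10. The list mean, in log2 CPM relative to the 45 fL mean, was -0.31, 0.70 and -0.39 at 45 fL and 1.25, -0.36 and 1.12 at 50 fL. Replicates 1 and 3 of 50 fL were thus highest, 45 fL replicate 2 lay between, and 50 fL replicate 2 lay with 45 fL replicates 1 and 3. The 2 libraries highest in summed markers of cells past G1, 50 fL replicate 1 and 45 fL replicate 2, were also high here, and the part of such cells was not tested. In none of the 26 genes were the sizes free of overlap, against 27.2% of all genes. CLN2, a G1 cyclin that starts budding (chromosome XVI, 64977 to 66614, minus strand), stood at 43.0, 111 and 39.8 CPM at 45 fL and 205, 44.8 and 189.7 CPM at 50 fL and rose by 1.18 ± 0.44 (log2, SE, edgeR adjusted p = 0.0471). Its paralog CLN1 stood at 77.9, 164 and 60.9 CPM at 45 fL and 273, 72.7 and 260.2 CPM at 50 fL, where 50 fL replicates 1 and 3 were again the highest, and did not pass (1.00 ± 0.42 (log2, SE, edgeR adjusted p = 0.0692)). SWI4, the DNA-binding subunit of SBF (chromosome V, 382595 to 385876, minus strand), stood at 143, 168 and 60.1 CPM at 45 fL and 284, 142 and 340.3 CPM at 50 fL and rose by 1.05 ± 0.30 (log2, SE, edgeR adjusted p = 0.0257). In SWI4 the lowest value was that of 45 fL replicate 3, and 50 fL replicate 2 lay between 45 fL replicates 3 and 1.

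The S-phase cyclin CLB6 stood at 16.7, 33.1 and 10.8 CPM at 45 fL and 62.6, 18.7 and 64.1 CPM at 50 fL and rose by 1.26 ± 0.40 (log2, SE, edgeR adjusted p = 0.0324), and its partner CLB5 at 22.7, 33.1 and 17.5 CPM at 45 fL and 51.3, 23.0 and 53.6 CPM at 50 fL, a rise of 0.81 ± 0.25 (log2, SE, edgeR adjusted p = 0.0291). CRH1, for a cell wall transglycosylase, stood at 109, 259 and 106 CPM at 45 fL and 580.2, 104 and 520.4 CPM at 50 fL and rose by 1.34 ± 0.43 (log2, SE, edgeR adjusted p = 0.0331). In all of these the pair of high 50 fL libraries was above every 45 fL library and 50 fL replicate 2 was within or near the 45 fL range. RNR1, the large subunit of ribonucleotide reductase, did not pass although it had the same pattern: it stood at 507, 1228 and 439 CPM at 45 fL and 1838, 408 and 1951 CPM at 50 fL (0.95 ± 0.46 (log2, SE, edgeR adjusted p = 0.104)). Its change without 50 fL replicate 2 was 1.39 ± 0.37. PCL1, a cyclin of the kinase Pho85, stood at 59.9, 141 and 52.6 CPM at 45 fL and 244, 53.5 and 215 CPM at 50 fL and did not pass (1.01 ± 0.46 (log2, SE, edgeR adjusted p = 0.0858)).

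Few genes for DNA synthesis passed. Of 45 replication genes 5 rose (11.1%) and 3 fell (6.67%), both below the shares of all genes (15.3% and 16.8%). Their median was 0.33, and without 50 fL replicate 2 these counts were 26 and 6. RFA1, a subunit of the protein that binds single-stranded DNA, stood at 101, 138 and 72.4 CPM at 45 fL and 212, 102 and 238 CPM at 50 fL and rose by 0.82 ± 0.23 (log2, SE, edgeR adjusted p = 0.0241). SLD2, an initiation factor, rose by 0.80 ± 0.23, POL31, of DNA polymerase delta, by 0.56 ± 0.17, and the licensing factor CDC6 by 0.77 ± 0.23. DPB4, of DNA polymerase epsilon, fell by 0.57 on the log2 scale. POL1, the catalytic subunit of polymerase alpha, stood at 168, 264 and 152 CPM at 45 fL and 346, 136 and 419 CPM at 50 fL and did not pass (0.63 ± 0.28 (log2, SE, edgeR adjusted p = 0.0882)). Of 21 cohesion and repair genes 3 rose (14.3%), among them the checkpoint kinase RAD53 (0.80 ± 0.30) and the cohesin acetyltransferase ECO1 (0.84 ± 0.26), and 14 did without 50 fL replicate 2. None of the 10 histone genes passed, with a median of 0.35 that turned to -0.17 without 50 fL replicate 1. HTA2, an H2A gene, stood at 38.2, 114 and 39.8 CPM at 45 fL and 162, 23.6 and 75.3 CPM at 50 fL, so that 45 fL replicate 2 exceeded 50 fL replicate 3.

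**Figure D2:**
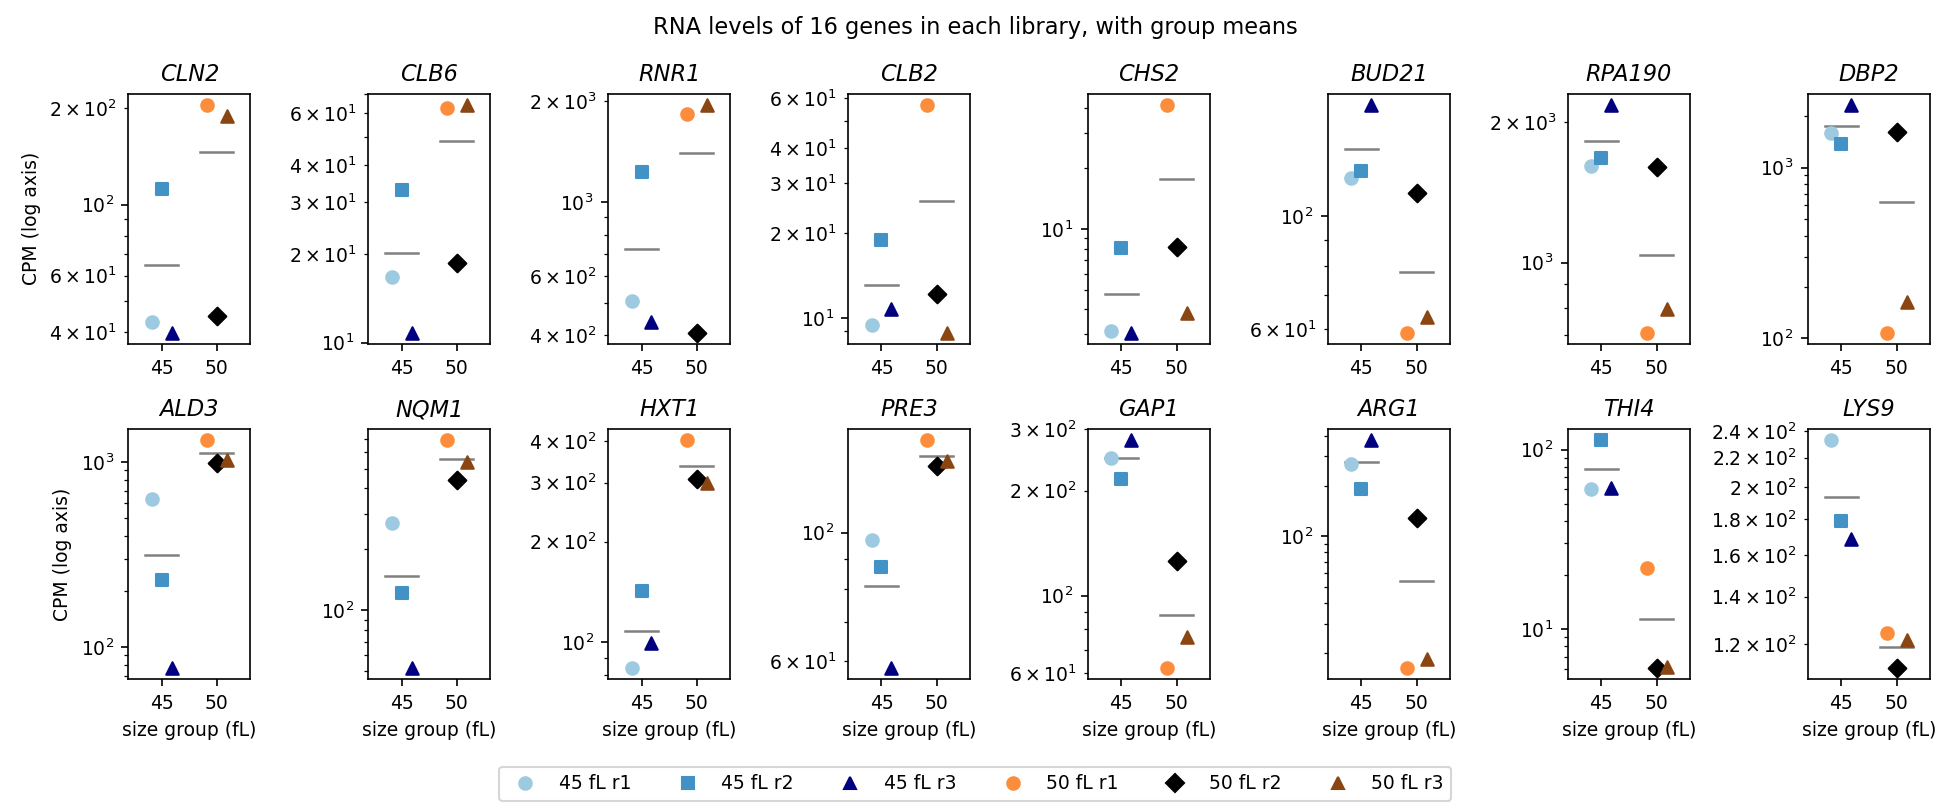
CPM (log axis, its range differing by panel) of 16 genes in the 3 libraries of 45 fL and the 3 of 50 fL, with group means as grey lines. In CLN2, CLB6, RNR1, RPA190, DBP2 and ARG1 the black diamond, 50 fL replicate 2, is apart from both other 50 fL libraries, while in ALD3, HXT1, PRE3, THI4 and LYS9 it lies with at least 1 of them; CLB2 and CHS2 are high in 50 fL replicate 1.

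Mitotic genes were high in a single library. The list mean of the CLB2 cluster, genes that peak in G2 and mitosis, was -0.21, 0.37 and -0.16 at 45 fL and 1.29, 0.05 and -0.14 at 50 fL. Its 26 members gave 2 rises (7.69%, against 15.3% of all genes) and no fall, with a median of 0.57 that was -0.00084 without 50 fL replicate 1. CLB1, a mitotic cyclin, stood at 19.7, 65.3 and 30.9 CPM at 45 fL and 159, 23.6 and 18.9 CPM at 50 fL, and CLB2, its paralog, at 9.46, 18.9 and 10.8 CPM at 45 fL and 56.8, 12.2 and 8.87 CPM at 50 fL (not passed, 1.00 ± 0.48 (log2, SE, edgeR adjusted p = 0.103)). CHS2, the chitin synthase of the primary septum (chromosome II, 311898 to 314789, plus strand), had the largest rise of the genes that could be named, from 3.12, 8.04 and 3.06 CPM at 45 fL and 41.4, 8.15 and 3.82 CPM at 50 fL (1.93 ± 0.59 (log2, SE, edgeR adjusted p = 0.0291)). That rise lay in 50 fL replicate 1, as replicate 2 was level with 45 fL replicate 2 and replicate 3 was close to 45 fL replicates 1 and 3. MYO1, the myosin of the contractile ring, also rose (0.60 ± 0.20), with its values at 119, 129 and 116 CPM at 45 fL and 252, 147 and 155 CPM at 50 fL, where again replicate 1 was the highest library of 50 fL. 50 fL replicate 1 also had the highest summed markers of cells past G1, 1037 CPM without TMM scaling. CLB1, CLB2 and CHS2 are 3 of these markers. The part of such cells in the other changes was not tested.

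**Figure D3:**
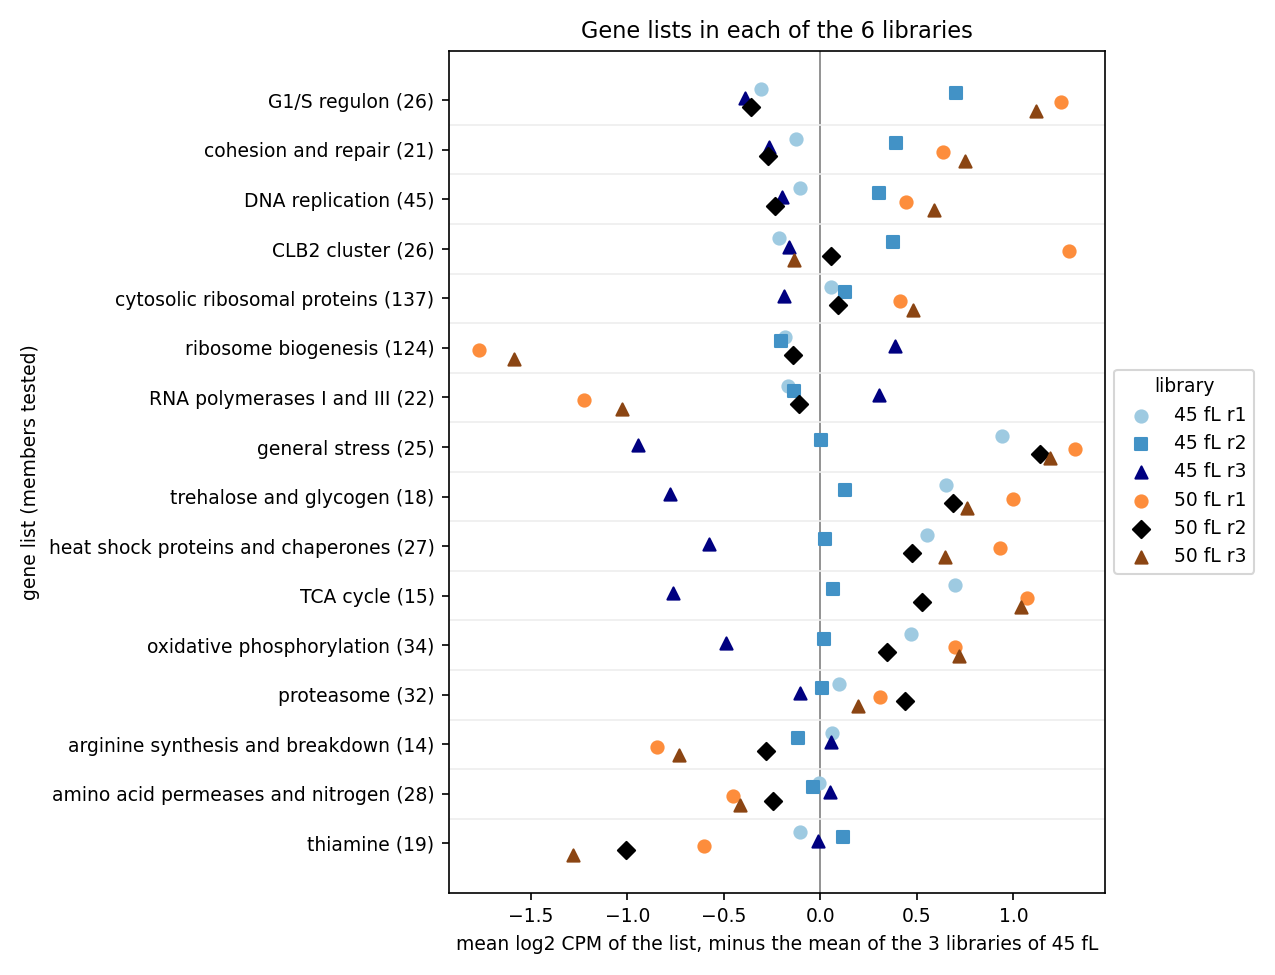
Mean log2 CPM of 16 gene lists in each of the 6 libraries, relative to the mean of the 45 fL libraries; numbers in brackets are members tested. For G1/S and ribosome biogenesis genes, 50 fL replicate 2 (black diamond) lies with the 45 fL libraries, for thiamine genes with 50 fL, for general stress genes near both 50 fL and 45 fL replicate 1, and for the CLB2 cluster 50 fL replicate 1 stands alone.

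Ribosome assembly genes were lower nearly throughout the list. Of 124 ribosome biogenesis genes 109 fell and none rose, where 16.8% of all genes fell, and the median was -0.99. Changes of single members ran from -1.49 to -0.37. The list mean was -0.18, -0.20 and 0.39 at 45 fL and -1.77, -0.14 and -1.59 at 50 fL, so that 50 fL replicates 1 and 3 were far below the rest, 50 fL replicate 2 was level with 45 fL replicates 1 and 2, and 45 fL replicate 3 was the highest. Without 50 fL replicate 2 the count was 123 and the median -1.71, and without both that library and 45 fL replicate 3 the median was -1.49. In 18 of the 124 genes the sizes did not overlap, against 27.2% of all genes. BUD21, of the complex that processes the small subunit rRNA (chromosome XV, 472725 to 473369, plus strand), stood at 119, 123 and 166 CPM at 45 fL and 59.1, 111 and 63.4 CPM at 50 fL and fell, with a change of -0.80 ± 0.23 (log2, SE, edgeR adjusted p = 0.0258). SPB4, an RNA helicase for the large subunit (chromosome VI, 145114 to 146934, minus strand), stood at 185, 167 and 244 CPM at 45 fL and 72.5, 173 and 73.9 CPM at 50 fL, a change of -0.90 ± 0.26 (log2, SE, edgeR adjusted p = 0.0277). TSR1, of small subunit maturation, changed by -0.84 ± 0.25 and RRP9, which binds U3 RNA, by -0.78 ± 0.23. NOP1, the methyltransferase of box C/D RNAs, stood at 578, 637 and 884 CPM at 45 fL and 248, 692 and 290.4 CPM at 50 fL and did not pass (-0.77 ± 0.29 (log2, SE, edgeR adjusted p = 0.0519)).

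DBP2, an RNA helicase of the same list (chromosome XIV, 413639 to 416281, plus strand), is named as one of the 5 largest falls without 50 fL replicate 2. It stood at 1590.5, 1365 and 2327 CPM at 45 fL and 108, 1608 and 164 CPM at 50 fL. The 2 low libraries of 50 fL were far below every other library, and 50 fL replicate 2 was within the 45 fL range. With all libraries DBP2 did not pass (-1.49 ± 0.66 (log2, SE, edgeR adjusted p = 0.0808)), and without 50 fL replicate 2 its change was -3.69 ± 0.43. HXT2, a high-affinity glucose transporter, was similar, at 512, 462 and 937 CPM at 45 fL and 35.3, 598 and 31.7 CPM at 50 fL, with -1.52 ± 0.82 (log2, SE, edgeR adjusted p = 0.145) and without that library -4.25 ± 0.68. PRM7, a pheromone-regulated gene, and PHO89, a phosphate transporter, changed by -3.18 ± 0.52 and -3.36 ± 0.71 without the library and by -1.15 ± 0.67 and -1.20 ± 0.77 with it, neither of which passed.

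Polymerases that make rRNA and tRNA went with the assembly factors. Among 22 genes for RNA polymerase I and III subunits 19 fell (86.4%, against 16.8% of all genes) and none rose, with a median of -0.78 and 21 falls without 50 fL replicate 2. RPA190, the largest subunit of RNA polymerase I, stood at 1611, 1676 and 2182 CPM at 45 fL and 707, 1605 and 796 CPM at 50 fL, and its change was -0.81 ± 0.26 (log2, SE, edgeR adjusted p = 0.0333). RPC37 and RPC25, of RNA polymerase III, changed by -0.75 ± 0.21 and -0.66 ± 0.18. Of 12 regulators of ribosome genes 6 fell, among them IFH1, the coactivator of ribosomal protein genes, at 313, 312 and 465 CPM at 45 fL and 139.6, 285 and 141 CPM at 50 fL (-0.94 ± 0.25 (log2, SE, edgeR adjusted p = 0.0240)), its partner FHL1 (-0.58 ± 0.13) and the activator SFP1 (-0.41 ± 0.11). Of 46 translation factors and tRNA synthetases 17 fell (37.0%) and none rose, with YEF3, the fungal elongation factor, at 8499.9, 9169 and 11319.8 CPM at 45 fL and 5332, 8440.5 and 5612 CPM at 50 fL (-0.58 ± 0.17). Of 75 small nucleolar RNAs 4 fell (5.33%) and none rose, with a median of 0.02, the same as for all genes. Without 50 fL replicate 2, 21 fell and 1 rose, in a fit where 27.3% of all genes fell and 26.0% rose.

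Some cytosolic ribosomal protein genes moved the other way. Of 137 genes 37 rose (27.0%, against 15.3% of all genes), no member fell, and the median was 0.33. All 137 had a positive change; without 50 fL replicate 2, 109 rose. The list mean was 0.06, 0.13 and -0.19 at 45 fL and 0.41, 0.09 and 0.48 at 50 fL. RPL22B stood at 56.7, 70.6 and 38.1 CPM at 45 fL and 105, 72.8 and 105 CPM at 50 fL and rose by 0.77 ± 0.17 (log2, SE, edgeR adjusted p = 0.0173), and RPL8A rose by 0.73 ± 0.21, though 20.1% of the words of 31 bases in RPL8A occur more than once in the genome, so part of its reads could belong to its copy. With deposited TPM the median of the list was 0.17 and that of all genes -0.13. Among 61 genes for mitochondrial ribosomal proteins 5 rose (8.2%, below the share of all genes) and no member fell, with a median of -0.02. Without 50 fL replicate 2, 5 rose, 17 fell and the median was -0.14, in a fit where 26.0% of all genes rose and 27.3% fell. MRPL44, one of the rises, stood at 30.2, 31.3 and 30.4 CPM at 45 fL and 37.8, 38.4 and 37.3 CPM at 50 fL (0.31 ± 0.08 (log2, SE, edgeR adjusted p = 0.0214)).

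The promoters of the falling assembly genes share short elements, shown here for BUD21 and SPB4, the 2 list members with the smallest p. Sequences run 5′ to 3′ on the gene's strand, from 250 bases before the annotated start to 50 bases after it, from the RefSeq copy of R64. Capitals mark PAC (GATGAG) and RRPE (AAAATTT), searched on both strands; the overlapping matches of RRPE and its reverse complement make 1 run of 8 bases.
BUD21 (chrXV:472475-472774, plus strand): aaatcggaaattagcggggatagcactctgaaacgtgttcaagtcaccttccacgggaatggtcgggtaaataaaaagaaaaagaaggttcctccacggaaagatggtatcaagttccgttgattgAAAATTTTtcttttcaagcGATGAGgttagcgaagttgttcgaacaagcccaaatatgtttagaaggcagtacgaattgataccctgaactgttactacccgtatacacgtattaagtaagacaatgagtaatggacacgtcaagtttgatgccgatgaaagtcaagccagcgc
SPB4 (chrVI:146885-147184, minus strand): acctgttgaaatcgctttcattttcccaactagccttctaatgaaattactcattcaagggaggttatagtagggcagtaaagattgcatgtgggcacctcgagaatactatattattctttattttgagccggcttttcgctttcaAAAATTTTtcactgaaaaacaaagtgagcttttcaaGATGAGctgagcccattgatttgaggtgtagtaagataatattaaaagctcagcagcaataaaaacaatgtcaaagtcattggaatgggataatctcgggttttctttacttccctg
In BUD21 the RRPE run began 124 and the PAC element 105 bases before the start, and in SPB4 they began 103 and 67 bases before it, so RRPE was upstream of PAC in both. Of the 124 ribosome biogenesis promoters 90.3% held PAC and 92.7% RRPE, against 19.9% and 23.5% of all 5894 promoters. Among all 1031 falls with a promoter in the reference the shares were 39.3% and 42.8%, and among 959 rises 10.1% and 15.3%. A match is a description of letters in the window, and the list was chosen by function, not by these elements.

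General stress genes had a higher list mean in every 50 fL library than in any 45 fL library. Shown are the promoters of GRE3, an aldose reductase, and GND2, an isoform of 6-phosphogluconate dehydrogenase, which had the smallest p of their list; they were chosen for display after the motif shares were seen. Capitals mark STRE (AGGGG, or CCCCT on the other strand) in the same window. In GRE3 the first stretch began 143 bases before the annotated start and the second 39 bases after it, so within the gene; that of GND2 began 164 bases before the start.
GRE3 (chrVIII:323159-323458, plus strand): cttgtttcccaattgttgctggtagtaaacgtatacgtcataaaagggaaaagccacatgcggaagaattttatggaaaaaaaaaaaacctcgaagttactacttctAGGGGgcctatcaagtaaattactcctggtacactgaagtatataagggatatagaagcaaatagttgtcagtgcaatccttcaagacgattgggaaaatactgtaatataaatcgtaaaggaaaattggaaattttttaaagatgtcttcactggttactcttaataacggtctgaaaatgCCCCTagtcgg
GND2 (chrVII:1004374-1004673, plus strand): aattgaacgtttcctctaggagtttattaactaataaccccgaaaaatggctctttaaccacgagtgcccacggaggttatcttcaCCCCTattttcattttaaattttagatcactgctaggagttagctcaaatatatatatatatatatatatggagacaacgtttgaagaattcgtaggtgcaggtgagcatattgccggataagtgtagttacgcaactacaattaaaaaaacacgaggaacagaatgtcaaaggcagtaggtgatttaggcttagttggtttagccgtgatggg
STRE stood in 64% of the 25 general stress promoters, in 32.7% of the promoters of rises, in 12.5% of those of falls and in 22.0% of all promoters. In the G1/S regulon MBF (ACGCGT) was found in 2 of 26 promoters (7.69%, against 3.12% of all promoters). SBF (CGCGAAA) was found in 3 of 26 (11.5%, against 3.66%). The windows of SWI4 and CLB5 held neither and are not shown.

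Of 25 general stress genes 6 rose (24%, against 15.3% of all genes), no member fell, and the median was 1.19. In 17 the sizes did not overlap, against 27.2% of all genes. The list mean was 0.94, 0.00 and -0.95 at 45 fL and 1.32, 1.14 and 1.19 at 50 fL. The 50 fL libraries lay close together, whereas the 45 fL libraries were widely spread, with replicate 1 closest to the 50 fL level and replicate 3 lowest. ALD3, a cytosolic aldehyde dehydrogenase (chromosome XIII, 599352 to 600872, minus strand), stood at 632, 231 and 77.2 CPM at 45 fL and 1309, 990.4 and 1028 CPM at 50 fL and rose by 1.82 ± 0.62 (log2, SE, edgeR adjusted p = 0.0380); 49.5% of its words of 31 bases occur elsewhere too, so its reads may be shared with its near copy ALD2, which rose by 1.58 ± 0.42. GRE3 stood at 302, 130.1 and 65.4 CPM at 45 fL and 452, 359 and 429 CPM at 50 fL and rose by 1.32 ± 0.41 (log2, SE, edgeR adjusted p = 0.0301), and GND2 at 230.3, 109.6 and 42.2 CPM at 45 fL and 393, 273 and 395 CPM at 50 fL, by 1.47 ± 0.50 (log2, SE, edgeR adjusted p = 0.0366). In all 3 genes every 50 fL library was above every 45 fL library. HSP12, a membrane-protecting heat shock protein, stood at 6887, 3172 and 1212 CPM at 45 fL and 10192, 6435 and 12245 CPM at 50 fL and did not pass (1.36 ± 0.56 (log2, SE, edgeR adjusted p = 0.0652)). The median of the list ran from 0.77 without 45 fL replicate 3 to 1.91 without 45 fL replicate 1.

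Most other large rises also had no overlap between the sizes, which the choice of the largest rises favours. NQM1, a transaldolase paralog, stood at 269, 121 and 52.1 CPM at 45 fL and 689.6, 437 and 536 CPM at 50 fL and rose by 1.91 ± 0.58 (log2, SE, edgeR adjusted p = 0.0284). TKL2, a transketolase, stood at 115, 66.9 and 30.4 CPM at 45 fL and 310.3, 198 and 195 CPM at 50 fL and rose by 1.73 ± 0.46 (log2, SE, edgeR adjusted p = 0.0240). GLO1, glyoxalase I, rose by 1.53 ± 0.34, HBT1 by 1.56 ± 0.51 and CPP3 by 1.70 ± 0.46, with CPP3 at 33.9, 16.4 and 11.8 CPM at 45 fL and 69.6, 64.8 and 68.4 CPM at 50 fL. In these 5 genes the sizes did not overlap, as in 27.2% of all genes. 45 fL replicate 1 was the highest of its group, while the order of the 50 fL libraries varied. GRE1, a stress-induced hydrophilin, rose by 1.74 ± 0.57, but its 50 fL replicate 2, at 171 CPM, was below 45 fL replicate 1, at 181 CPM.

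Storage carbohydrate and respiration genes rose in part. Of 18 trehalose and glycogen genes 4 rose (22.2%, against 15.3% of all genes) and 1 fell (5.56%, against 16.8%), with a median of 0.70. TPS1, trehalose-6-phosphate synthase, stood at 940.2, 488 and 187 CPM at 45 fL and 1449, 1198 and 1219 CPM at 50 fL and rose by 1.26 ± 0.46 (log2, SE, edgeR adjusted p = 0.0452), and UGP1, which makes UDP-glucose, rose by 1.09 ± 0.35. GAC1, a phosphatase subunit that targets glycogen synthase, fell, with -1.07 ± 0.36. Of 15 TCA cycle genes 9 rose (60%) and none fell, with the median at 0.78, among them LPD1, a dehydrogenase subunit, at 365, 271 and 169 CPM at 45 fL and 555, 358 and 556 CPM at 50 fL (0.87 ± 0.23 (log2, SE, edgeR adjusted p = 0.0237)), and KGD1, of 2-oxoglutarate dehydrogenase, by 0.87 ± 0.25. Of 34 nuclear genes of oxidative phosphorylation 16 rose (47.1%) and 1 fell, the median being 0.57, with ATP5 and ATP4 of the ATP synthase at 0.66 ± 0.19 and 0.57 ± 0.17. None of the 8 mitochondrially encoded genes passed, and their median was -0.14. In TCA genes 50 fL replicate 2 lay between its mates and the 45 fL mean, with a list mean of 0.53 against 1.07 and 1.04, and 45 fL replicate 1 stood at 0.70.

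Of 13 hexose transporters 2 rose (15.4%) and 1 fell (7.69%), at or below the shares of all genes (15.3% and 16.8%). HXT1, a low-affinity transporter (chromosome VIII, 290913 to 292625, minus strand), stood at 84.0, 142 and 99.4 CPM at 45 fL and 402, 307 and 299 CPM at 50 fL and rose by 1.63 ± 0.45 (log2, SE, edgeR adjusted p = 0.0240). All 50 fL libraries, replicate 2 included, were above all 45 fL libraries. HXT5, a transporter of slowly growing cells, stood at 333, 156 and 80.4 CPM at 45 fL and 577, 369 and 524 CPM at 50 fL and rose by 1.37 ± 0.50 (log2, SE, edgeR adjusted p = 0.0462), and HXT13 was the single member of the 13 that fell (-0.57 ± 0.19), with 52.7% of its words repeated in the genome. Among 21 glycolysis and fermentation genes PFK2 and PYK2 rose (0.70 ± 0.24 and 0.81 ± 0.26) and PDC5 fell (-1.12 ± 0.40). PDC1, the main pyruvate decarboxylase, stood at 8687, 8156 and 6255 CPM at 45 fL and 12522, 7205 and 10621 CPM at 50 fL and did not pass (0.39 ± 0.23 (log2, SE, edgeR adjusted p = 0.183)). CIT2, the peroxisomal citrate synthase, fell, from 52.8, 142 and 74.5 CPM at 45 fL and 30.2, 47.2 and 34 CPM at 50 fL (-1.27 ± 0.29 (log2, SE, edgeR adjusted p = 0.0179)).

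Some protein quality control genes rose. Of 27 heat shock proteins and chaperones 12 rose (44.4%, against 15.3% of all genes) and no member fell, with a median of 0.87. The list mean was 0.55, 0.02 and -0.58 at 45 fL and 0.93, 0.47 and 0.65 at 50 fL, so 50 fL replicate 2 was below 45 fL replicate 1. CPR6, a cyclophilin that works with Hsp90, stood at 155, 121 and 75.0 CPM at 45 fL and 254, 163 and 244 CPM at 50 fL and rose by 0.91 ± 0.21 (log2, SE, edgeR adjusted p = 0.0185), and SIS1, an Hsp40 cochaperone, stood at 265, 215 and 125 CPM at 45 fL and 400.4, 348 and 356 CPM at 50 fL and rose by 0.87 ± 0.22 (log2, SE, edgeR adjusted p = 0.0209). BTN2, a protein sorting chaperone, rose by 1.04 ± 0.26. Of 32 proteasome genes 9 rose (28.1%) and no member fell (median 0.34), and in 26 (81.2%, against 27.2% of all genes) the sizes did not overlap. Without 50 fL replicate 2, 5 rose and 1 fell, in a fit where 26.0% of all genes rose and 27.3% fell. PRE3, a catalytic subunit (chromosome X, 435163 to 435926, plus strand), stood at 97.2, 87.1 and 58.3 CPM at 45 fL and 145, 130.3 and 133 CPM at 50 fL and rose by 0.75 ± 0.19 (log2, SE, edgeR adjusted p = 0.0208). PRE2, another catalytic subunit, rose by 0.66 ± 0.16 and PUP1 by 0.52 ± 0.15. The list mean of the proteasome was 0.10, 0.01 and -0.11 at 45 fL and 0.31, 0.44 and 0.19 at 50 fL, where 50 fL replicate 2 was the highest of the 6 libraries.

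Some genes for nitrogen uptake and arginine metabolism fell. Of 14 arginine genes 7 fell (50%, against 16.8% of all genes) and 1 rose, with a median of -0.39. In 7 (50%, against 27.2%) the sizes did not overlap. Without 50 fL replicate 2, 7 fell and 4 rose, in a fit where 27.3% of all genes fell and 26.0% rose. ARG1, argininosuccinate synthetase (chromosome XV, 219211 to 220473, plus strand), had one of the largest falls. It stood at 270.0, 191 and 375 CPM at 45 fL and 16.4, 128 and 18.5 CPM at 50 fL, and the change was -2.36 ± 0.55 (log2, SE, edgeR adjusted p = 0.0180). Every 50 fL library was below every 45 fL library, but replicate 2 was well above its mates, and without it the change was -4.0 ± 0.35. CPA1, of carbamoyl-phosphate synthesis, changed by -1.54 ± 0.43. ARG3, ornithine carbamoyltransferase, and ARG8, of ornithine synthesis, changed by -1.46 ± 0.39 and -1.35 ± 0.33. In ARG8, at 104, 79.6 and 149.7 CPM at 45 fL and 24.7, 80.5 and 25.6 CPM at 50 fL, 50 fL replicate 2 stood within the 45 fL range.

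Of 28 amino acid permease and nitrogen genes 13 fell (46.4%, against 16.8% of all genes) and 1 rose, with a median of -0.33. The sizes did not overlap in 16 (57.1%, against 27.2%). GAP1, the general amino acid permease (chromosome XI, 515063 to 516871, plus strand), stood at 248, 215 and 279 CPM at 45 fL and 62.1, 125 and 76.2 CPM at 50 fL and changed by -1.49 ± 0.27 (log2, SE, edgeR adjusted p = 0.0124). DUR3, the urea transporter, stood at 54.9, 45.5 and 63.6 CPM at 45 fL and 21.1, 28.9 and 25.0 CPM at 50 fL and changed by -1.13 ± 0.20 (log2, SE, edgeR adjusted p = 0.00801). MEP2, an ammonium permease and sensor, stood at 37.6, 42.2 and 49.1 CPM at 45 fL and 15.5, 27.7 and 17.8 CPM at 50 fL (-1.08 ± 0.21). In all 3, replicate 2 was the highest of 50 fL and still below every library of 45 fL. DAL5, an allantoate permease, had the tightest groups, at 30.9, 32.1 and 35.2 CPM at 45 fL and 23.5, 23.9 and 21.7 CPM at 50 fL (-0.51 ± 0.09 (log2, SE, edgeR adjusted p = 0.0136)). Of 52 other amino acid genes 12 fell (23.1%) and 2 rose, with a median of -0.09. ARO3, of aromatic amino acid synthesis, and LYS4, of lysine synthesis, changed by -1.04 ± 0.21 and -1.03 ± 0.23. Of 23 sulfur genes 6 fell (26.1%) and 2 rose, and among the falls was SAM1, S-adenosylmethionine synthetase, at 596, 391 and 811 CPM at 45 fL and 88.8, 420.1 and 136 CPM at 50 fL (-1.48 ± 0.45 (log2, SE, edgeR adjusted p = 0.0284)).

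Thiamine genes had a lower list mean in every 50 fL library than in any 45 fL library. Of 19 genes 9 fell (47.4%, against 16.8% of all genes) and none rose, with a median of -1.05. The sizes did not overlap in 14 (73.7%, against 27.2%). The list mean was -0.11, 0.12 and -0.01 at 45 fL and -0.60, -1.01 and -1.28 at 50 fL, so 50 fL replicate 2 lay between its mates. THI4, of thiazole synthesis (chromosome VII, 780399 to 781379, plus strand), stood at 60.5, 113 and 61.0 CPM at 45 fL and 21.8, 6.05 and 6.09 CPM at 50 fL and changed by -2.78 ± 0.70 (log2, SE, edgeR adjusted p = 0.0214). Replicate 1 was the highest of 50 fL, and replicates 2 and 3 were alike. THI20, a kinase of the pyrimidine branch, stood at 455, 456 and 496 CPM at 45 fL and 194, 194 and 72.6 CPM at 50 fL (-1.61 ± 0.52 (log2, SE, edgeR adjusted p = 0.0331)), and its relatives THI21 and THI22 changed by -1.24 ± 0.28 and -1.77 ± 0.56. PET18, which is outside the list and among the 10 largest falls, stood at 142, 115 and 172 CPM at 45 fL and 40.0, 55.9 and 15.8 CPM at 50 fL (-1.94 ± 0.51 (log2, SE, edgeR adjusted p = 0.0235)). SNZ2, of vitamin B6 synthesis, changed by -1.26 ± 0.29, but 84.0% of its words are repeated in the genome.

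Lipid genes changed in both directions. Of 16 fatty acid genes 7 fell (43.8%, against 16.8% of all genes) and 3 rose (18.8%, against 15.3%), with a median of -0.17. OLE1, the fatty acid desaturase (chromosome VII, 398628 to 400160, plus strand), stood at 3858, 3836 and 5191 CPM at 45 fL and 799, 2664 and 1092 CPM at 50 fL and changed by -1.50 ± 0.41 (log2, SE, edgeR adjusted p = 0.0240). MGA2, an activator of OLE1, stood at 454, 469 and 636 CPM at 45 fL and 197, 351 and 213 CPM at 50 fL and changed by -1.04 ± 0.23. FAS1, of fatty acid synthase, and ACC1, acetyl-CoA carboxylase, changed by -0.76 ± 0.20 and -0.77 ± 0.21. In these 4 genes all 50 fL libraries were below all 45 fL libraries, with replicate 2 the highest of the 3. Of 34 phospholipid and storage lipid genes 10 fell (29.4%) and 3 rose (8.82%), with CDS1, which makes CDP-diacylglycerol, at -0.81 ± 0.19 and the inositol transporter ITR1 at -1.10 ± 0.34. INO1, inositol-phosphate synthase, stood at 61.4, 43.5 and 73.8 CPM at 45 fL and 27.0, 63.4 and 23.3 CPM at 50 fL and did not pass (-0.65 ± 0.30 (log2, SE, edgeR adjusted p = 0.0894)). Of 26 ergosterol genes 4 rose (15.4%), among them ERG9 (0.62 ± 0.14) and HMG1 (0.58 ± 0.13), and 2 fell (7.69%), IDI1 (-0.66 ± 0.20) and the activator ECM22 (-0.55 ± 0.17). Of 23 sphingolipid genes 4 rose (17.4%) and 5 fell (21.7%). The iron list was also near the shares of all genes, as 5 of 23 fell (21.7%) and 3 rose (13.0%), with the iron permease FTR1 at -0.91 ± 0.19 and the low-affinity transporter FET4 at -0.91 ± 0.22.

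Lists with few calls are given by count, beside rises in 15.3% and falls in 16.8% of all genes. Of 30 septin, polarity and budding genes 4 rose and 2 fell, of 38 spindle and kinetochore genes 1 rose (TUB3) and 1 fell (ASK1), and of 15 licensing genes 1 rose (CDC6). Of 32 cell wall genes 1 rose, CWP1 (1.17 ± 0.38), and 2 fell, GAS5 (-0.51 ± 0.17) and KRE9 (-0.28 ± 0.09). TIP1, a cell wall mannoprotein gene, stood at 812, 838 and 1142 CPM at 45 fL and 129, 803 and 198 CPM at 50 fL and did not pass (-1.31 ± 0.50 (log2, SE, edgeR adjusted p = 0.0513)). Of 23 purine and one-carbon genes 1 rose and 5 fell, of 18 phosphate genes 1 and 1, of 20 glucose-repressed genes 4 and 2, and of 15 proton pump genes 4 and none. None of the 11 anaerobic mannoprotein genes passed. Of 15 haploid-specific genes 3 fell, with FUS3 at -1.06 ± 0.32, and of 19 meiosis genes 3 fell, with the kinase SPS1 at 30.6, 22.8 and 40.6 CPM at 45 fL and 3.56, 20.8 and 3.50 CPM at 50 fL (-1.75 ± 0.51 (log2, SE, edgeR adjusted p = 0.0275)).

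Where 50 fL replicate 2 lay between the sizes was measured gene by gene, on genes chosen without it. The measure is 0 at the 45 fL mean and 1 at the mean of 50 fL replicates 1 and 3, in log2 CPM. Over 3432 genes called without the library, its median was 0.178, with quartiles of 0.0023 and 0.445. It was 0.303 for rises and 0.123 for falls, and 2719 genes (79.2%) stood nearer to the 45 fL mean. A second rule took genes with a change of at least 2-fold in the fit without the left-out library. The median was then 0.148 for 50 fL replicate 2 (1006 genes), with 0.530 for rises and 0.109 for falls. It was 1.14 for replicate 1 (221 genes) and 1.06 for replicate 3 (246 genes), each with 1 at the mean of its own mates. Those mates include replicate 2, so these medians are not on the same scale. By the same rule, 0 was then the 50 fL mean and 1 the mean of the other 45 fL libraries. 45 fL replicates 1, 2 and 3 had medians of 0.449, 0.735 and 1.31, over 773, 595 and 161 genes. So 45 fL replicate 3 stood beyond its mates. For 45 fL replicate 1 the median was 0.241 for rises, nearer the 50 fL mean, and 0.793 for falls, nearer its mates. 50 fL replicate 2 was not near the 45 fL mean for every list. For ribosome biogenesis its list mean lay at 0.08 of the way and for the G1/S regulon at -0.30, but for chaperones at 0.60, trehalose and glycogen at 0.78, general stress at 0.91 and thiamine at 1.07. In 3 of these lists 45 fL replicate 1 was close to it as well: their list means were 0.55 and 0.47 for chaperones, 0.65 and 0.69 for trehalose and glycogen, and 0.94 and 1.14 for general stress.

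**Figure D4:**
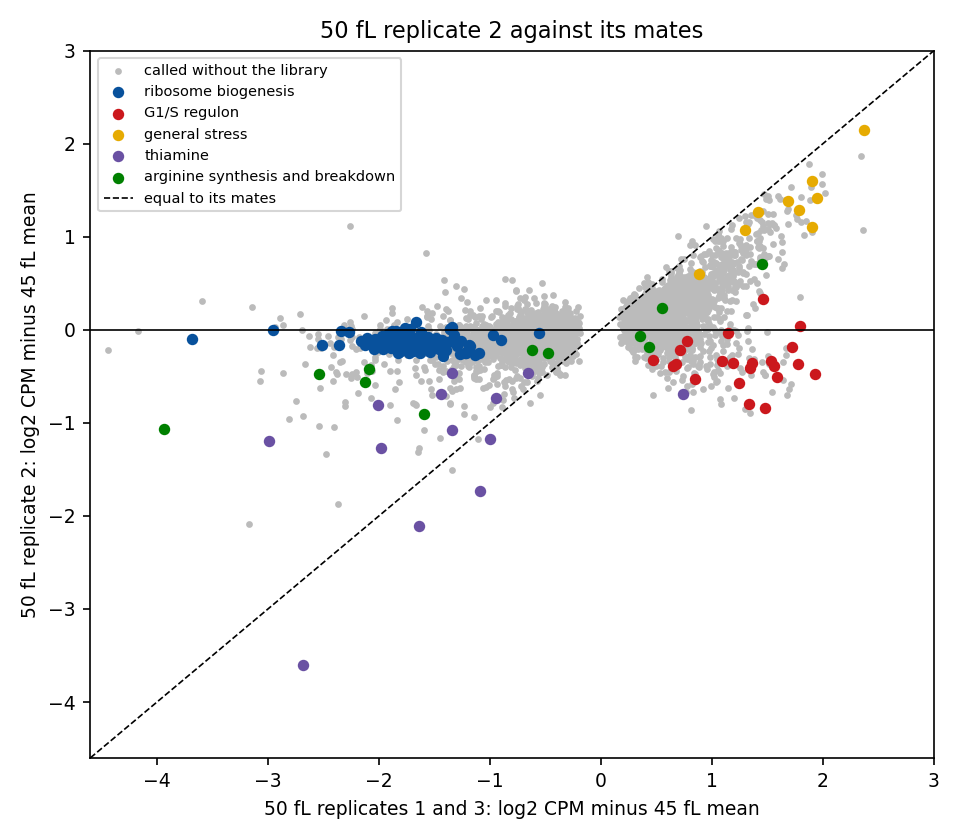
For each gene called without 50 fL replicate 2, the log2 CPM of that library relative to the 45 fL mean (vertical) against that of 50 fL replicates 1 and 3 (horizontal). On the dashed line the library equals its mates, on the horizontal line the 45 fL mean; ribosome biogenesis genes (blue) and G1/S genes (red) lie near or below the horizontal line, general stress genes (yellow) nearer the dashed line, and thiamine genes (purple) on both sides of it.

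The step was compared with its neighbour from 40 to 45 fL and with the step from 55 to 60 fL, which shares no library with it. edgeR called a difference in change between 45 to 50 fL and 40 to 45 fL for 89 genes (1.39%), of which 79 (1.23%) were lower relative to the earlier step. The count was 1003 (15.6%) without 50 fL replicate 2. From 40 to 45 fL itself edgeR called 14.4% of genes. THI4, for which the difference was -7.69 ± 1.14 (log2, SE, edgeR adjusted p = 0.00152), stood at a mean of 2.59 ± 0.667 CPM at 40 fL, 78.1 ± 30.1 at 45 fL and 11.3 ± 9.08 at 50 fL (SD, n = 3). It was thus high at 45 fL between a pair of lower sizes. TIR1, a mannoprotein gene, differed by -6.11 ± 0.98 (edgeR adjusted p = 0.00295) and LYS9 by -2.25 ± 0.20 (edgeR adjusted p = 4.21e-06). From 45 to 50 fL itself TIR1 changed by -1.05 and did not pass. LYS9 stood at 66.2 ± 1.97, 194 ± 34.4 and 119 ± 7.07 CPM at 40, 45 and 50 fL. Between 45 to 50 fL and 55 to 60 fL, edgeR called 3 genes (0.0469%), THI4, SNZ2 and SNZ3, with 290 at an unadjusted p under 0.05, and DESeq2 called 17. In the fit without 50 fL replicate 2, edgeR called 2 others (0.0311%), ARG1 and ARG8, with 883 at an unadjusted p under 0.05.

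Over the sizes, list means show how the step sits in the series. The ribosome biogenesis mean, relative to 45 fL, was 0.21 ± 0.11 at 40 fL, -1.17 ± 0.89 at 50 fL, -0.54 ± 0.71 at 55 fL and -1.42 ± 0.08 at 60 fL (SD, n = 3), so its SD was far larger at 50 and 55 fL than at 60 fL. The G1/S mean was -2.07 ± 0.38, 0.67 ± 0.89, 0.86 ± 0.27 and 1.69 ± 0.03 at those sizes. General stress had its highest mean at 50 fL, 1.22 ± 0.09, against -0.65 ± 0.50 at 40 fL and -0.51 ± 0.38 at 55 fL. Thiamine genes stood at -1.35 ± 0.04 at 40 fL, -0.96 ± 0.34 at 50 fL and 0.41 ± 0.47 at 60 fL. The arginine list stood at -0.62 ± 0.30 at 50 fL and between -0.78 and -0.63 at all larger sizes, where its SD was smaller.

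**Figure D5:**
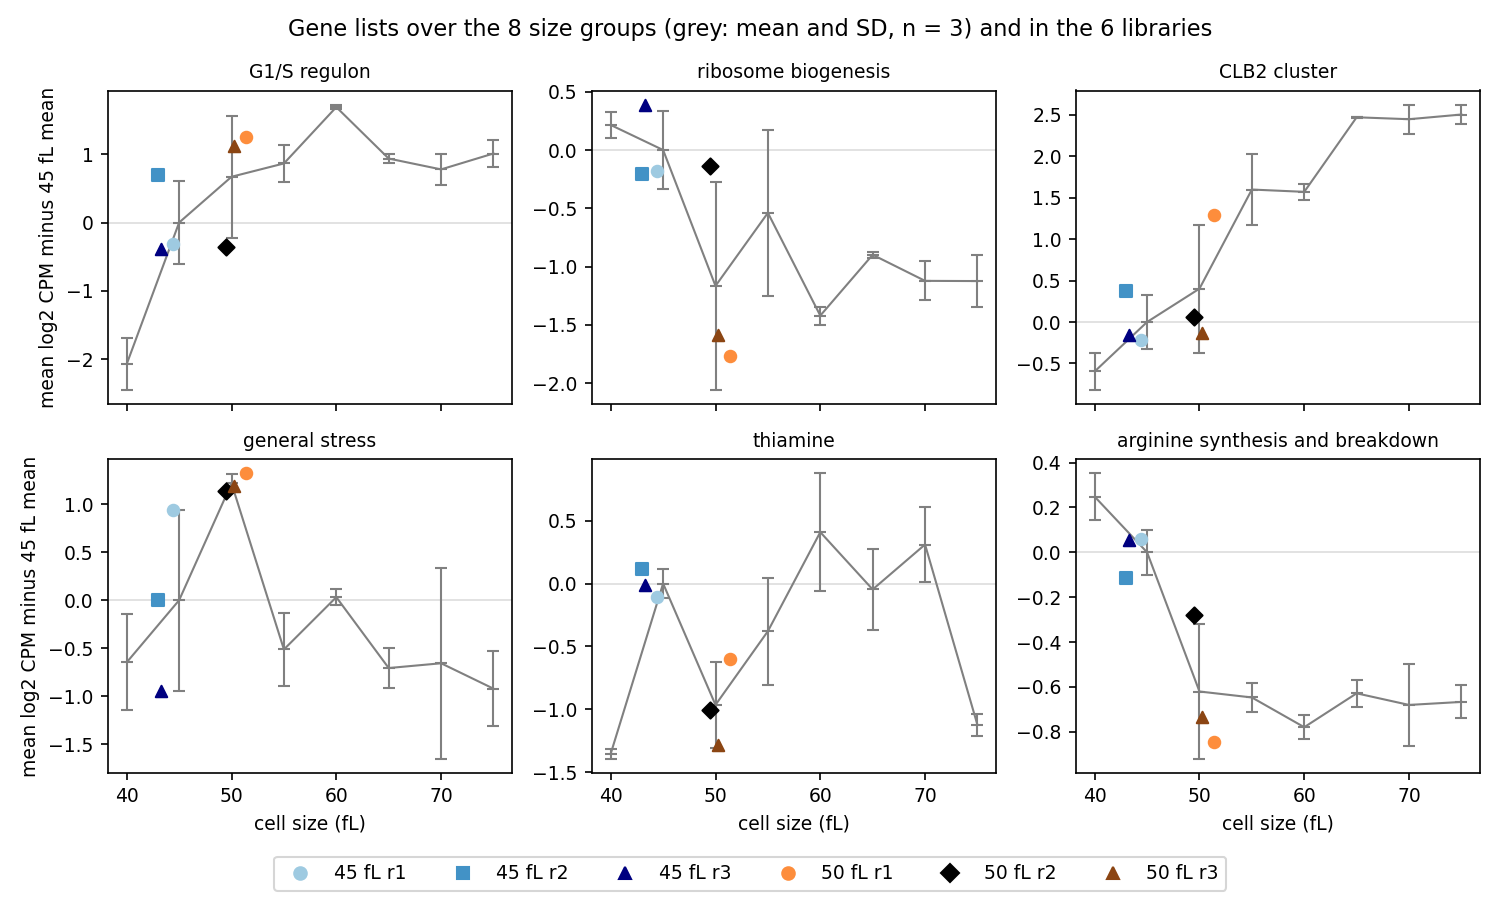
Mean log2 CPM of 6 gene lists over the 8 size groups, relative to the 45 fL mean (grey, mean and SD of 3 libraries), with the 6 libraries of the step as coloured points at their labelled size. The 50 fL SD is wide for G1/S and ribosome biogenesis genes, where replicate 2 (black diamond) lies apart, and narrow for general stress genes, which are highest at 50 fL.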

How the data were processed

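RNA of 24 pools of diploid BY4743 was sequenced, and both tables hold 7032 features. The counts are raw reads per feature of genome build R64, which the authors made with featureCounts of Subread, per the submitters' processing notes. The TPM values are scaled for feature length and library and were deposited by the authors. How strand and multiply matched reads were handled, and the aligner, are not given in the sources used, so overlapping genes and near copies are uncertain. Features were matched to R64 by locus tag (5953) or symbol (122), and 957 stayed unmatched; 6 of the 1061 list entries were not found.

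Libraries were put in the nearest size group, and replicates were numbered in record order. Counts of all 24 libraries were fitted with edgeR (4.0.16, R 4.3.3): TMM factors, filterByExpr, robust quasi-likelihood F test, 1 coefficient per size, Benjamini-Hochberg over 6402 genes. The common biological coefficient of variation was 0.179, and TMM factors of the 6 libraries were 0.959 to 1.04. A gene was called at an adjusted p under 0.05, and SE is the log2 change over the root of F. List means use log2 CPM with a prior count of 2. Standard errors cover the spread between pools of a size, and the fit assumes the same spread at other sizes. The spread of list means was not the same. For ribosome biogenesis the SD was 0.34 for 45 fL, 0.89 for 50 fL, 0.71 for 55 fL, 0.08 for 60 fL and 0.03 for 65 fL. For general stress it was 0.94 for 45 fL, 0.09 for 50 fL and 0.99 for 70 fL. Where pools of 45 or 50 fL are more spread than most, standard errors and adjusted p from all 24 libraries can be too small.

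The members, the 44 lists and the rules were chosen with earlier results of these data known. Genes could be named if among the 10 largest called rises or falls (mean of at least 10 CPM), the 5 largest of each without 50 fL replicate 2, the 4 smallest adjusted p per list, or a list of landmark genes; others are said to be chosen after their values were seen, as were list members named because a count was small. A ribonuclease P gene and MRP8 were taken out of name-pattern lists of ribosomal proteins after their rows were seen. The plan was to print the promoters of SWI4 and CLB5, but they hold neither motif and are not shown. Alternatives were RLE factors, library totals, no filter, the 6 libraries alone, DESeq2 (1.42.0), limma-voom with quality weights and limma (3.58.1) on log2 of TPM plus 1 (TPM of at least 1 in 3 libraries), and each library left out. The edgeR fit was tested on simulated counts with the same spread in all genes and libraries and no library set apart. That test checks the code and cannot show how the fit behaves with the libraries that stood apart here. A few genes and 1 list are not reported here.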

Additional observations from a re-analysis of the deposited data

Results flagged for a closer look

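The change from 45 to 50 fL differed from the change from 40 to 45 fL in 11 genes named here, by a test of the difference in edgeR. In THI4 the difference was -7.69 (log2, adjusted p = 0.00152), where a rise of 4.91 ± 0.79 from 40 to 45 fL was followed by the fall given above. The thiamine genes THI20, THI21 and THI22 differed by -3.77, -2.49 and -4.24 (edgeR adjusted p = 0.0302, 0.00955 and 0.0272), SNZ2 by -3.80 (edgeR adjusted p = 0.000236) and PET18 by -3.68 (edgeR adjusted p = 0.0302). TIR1 differed by -6.11 (edgeR adjusted p = 0.00295) after a rise of 5.06 ± 0.69. Its own change from 45 to 50 fL was -1.05 and did not pass. LYS9 differed by -2.25 after a rise of 1.55 ± 0.12 and YMR244W by -4.28 after a rise of 1.37 ± 0.35 (edgeR adjusted p = 4.21e-06 and 0.000737). Smaller differences were -0.83 in DAL5 (edgeR adjusted p = 0.0123) and -0.71 in CKS1 (edgeR adjusted p = 0.0455). All 11 differences kept an edgeR adjusted p under 0.05 without 50 fL replicate 2, from 9.76e-06 in LYS9 to 0.0146 in THI22. The 45 fL libraries enter both steps with opposite sign, which the contrast accounts for. It does not account for the choice of genes, several of which were named for a large fall from the same 45 fL libraries. The fit without 50 fL replicate 2 keeps those libraries too, so it is no independent check.

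Against the step from 55 to 60 fL, THI4 differed by -5.79 and SNZ2 by -2.46 (edgeR adjusted p = 0.0315 for both). Without 50 fL replicate 2 the differences were -5.48 and -2.26 and did not pass (edgeR adjusted p = 0.0621 and 0.0609). Of the words of SNZ2 84.0% are repeated in the genome, so its reads and those of SNZ3 cannot be cleanly separated.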

How the results depend on the processing

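Calls for the step depended on the fit more than on scaling. The fit of all 24 libraries called 2055 genes, 978 rises and 1077 falls. Leaving out single libraries gave 1 to 3434 calls, 0 to 1676 rises and 1 to 1758 falls. The 6 libraries alone gave 0 calls, 0 rises and 0 falls at an edgeR adjusted p under 0.05 (smallest 0.26), with 489 rises and 577 falls at an unadjusted p under 0.05. limma-voom with quality weights gave 3302 calls, 1641 rises and 1661 falls, and gave 50 fL replicate 2 a weight of 0.0991 and 45 fL replicate 3 one of 0.181. Library totals gave 626 rises, and limma on TPM 479 rises and 1701 falls. Without both 50 fL replicate 2 and 45 fL replicate 3 edgeR called 2350 genes. DESeq2 called 2612 and RLE factors 2238, within 1.5 times the main count. For the difference from the step of 40 to 45 fL, 89 with all libraries, library totals gave 47, DESeq2 244 and the fit without 50 fL replicate 2 1003. For that from 55 to 60 fL, 3 with all libraries, DESeq2 gave 17. The cause of these shifts was not tested, beyond the libraries that each fit leaves out.

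Among 147 genes followed through the alternatives, SIC1 turned to -0.037 with TPM. With single libraries left out, SIC1 ran from -0.0066 to 0.22, HHT2 from -0.028 to 0.81, HTA2 from -0.38 to 1.16, HTB2 from -0.33 to 1.06 and CLB2 from -0.31 to 1.41, each lowest without 50 fL replicate 1; none of the 5 passed with all libraries. With library totals 9 calls ended, among them CLN2, RAD53, TUB3, HOR7, TPS1, HXT5, CDC10 and MRPL44. With TPM 17 ended, among them CLN2, CLB5, CRH1, CHS2, SLD2, POL31, CDC6 and MYO1. Without 45 fL replicate 1, 11 ended, among them CHS2, CLB6, CRH1 and CLN2, and without 45 fL replicate 2, 14, among them NQM1, ALD3, GRE3, GND2 and THI22. WHI3 was lost with RLE factors and with no filter, and CHS2 with limma-voom. The median of ribosome biogenesis stayed between -1.71 and -0.71, of the G1/S regulon between 0.51 and 1.26 and of thiamine genes between -1.21 and -0.90 in all 14 alternatives. No paired analysis was possible because the labels carry no replicate numbers.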

Other observations

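Shares of RNA classes were close between the sizes. Small nucleolar RNAs took 2.23%, 2.24% and 2.07% of counts at 45 fL and 2.35%, 2.47% and 2.39% at 50 fL, so this share was higher in all 50 fL libraries. Their list mean, which weighs each member alike, was 0.053, -0.0021 and -0.051 at 45 fL, in log2 CPM relative to the 45 fL mean. At 50 fL it was -0.28, 0.11 and -0.31, so lower in replicates 1 and 3. A two-sided exact permutation test of 3 against 3 libraries cannot give a p under 0.1. Mitochondrially encoded RNAs took 1.10%, 0.945% and 0.999% at 45 fL and 0.884%, 0.861% and 0.943% at 50 fL. The remaining rRNA and spacers took 0.278% to 0.304% at 45 fL and 0.309% to 0.349% at 50 fL.

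50 fL replicate 2 and 45 fL replicate 1, which resembled each other, were labelled 49.5 and 44.4 fL. These were the smallest label of 50 fL and the largest of 45 fL. 45 fL replicate 2, with the smallest label of its group at 43.0 fL, was nearest to 55 fL replicate 3, at 0.350. 45 fL replicate 3, at 43.3 fL, was nearer to 40 fL replicate 3 (0.516) than to 45 fL replicate 1 (0.582). The part of labelled size in these distances was not tested. SPS4, a sporulation gene, was high in a single library, with 1.44, 3.16 and 2.38 CPM at 45 fL and 11.5, 1.40 and 0.972 CPM at 50 fL, the same library in which CLB2 cluster genes were high.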
